A study of Mus musculus with 12 samples.

Results

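DNA methylation was examined at CCCGGG sites in and around 10 genes of the Wnt pathway in colonic adenomas of the mouse. The genes were the secreted antagonists Sfrp1, Sfrp2, Sfrp4, Sfrp5, Dkk1, Dkk3 and Wif1, the destruction complex genes Apc and Axin2, and the stem cell receptor gene Lgr5. The members were the sites inside 1 window per gene, given in coordinates of the mm9 build, that had at least 20 reads in each of 11 adenomas. Of 77 sites listed in the windows, 23 met this minimum, against 24503 of 164896 listed on all autosomes. The kept sites lay in 5 genes: 9 in Axin2, 6 in Sfrp2, 4 in Lgr5, 2 in Dkk3 and 2 in Apc.

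All adenomas came from C57BL/6J mice with 1 Min allele of Apc (ApcMin/+), killed at 150 to 160 days. Control adenomas were Tet1+/+ Tdg+/+. Tet1 null adenomas were Tet1-/- with wild-type Tdg. Tdg heterozygous adenomas carried wild-type Tet1 and 1 N151A allele of Tdg (TdgN151A/+). Double heterozygous adenomas were Tet1+/- and TdgN151A/+. Each genotype had 3 adenomas, and the labels do not say whether those of a genotype came from separate mice. If some shared a mouse, the spread between adenomas would not cover that between mice, and p-values could be too low. No group of mice without the Min allele and no normal colon was part of the comparison. Total reads were 8213211 to 18865833 in the 11 adenomas used, with Tet1 null 3 the shallowest. The third double heterozygous adenoma had 2349576 reads and was left out of every mean below, so that genotype has n = 2.

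Wnt ligands bind Frizzled receptors and LRP co-receptors, which blocks the complex of APC, AXIN and kinases that marks beta-catenin for degradation. Secreted frizzled-related proteins and WIF1 bind the ligands outside the cell, and DKK1 binds the LRP co-receptors. DKK3 is grouped with the Dickkopf family by sequence, with a role in Wnt signalling that is less clear. AXIN2 belongs to the destruction complex and is itself induced by Wnt signalling. LGR5 is a receptor for R-spondins and marks stem cells at the base of intestinal crypts. Promoters of the antagonist genes are known for gain of methylation in colorectal tumours. TET1 oxidises 5-methylcytosine, and TDG is the glycosylase that excises oxidised forms of it. The 4 genotypes allow the question whether methylation at these genes differs in adenomas when either enzyme is reduced.

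The assay, digital restriction enzyme analysis of methylation, reads a CpG only where it sits in CCCGGG. SmaI cuts the site when it is unmethylated, XmaI then cuts the sites that are left, and the ends of the reads tell both states apart. To show what such a site looks like at these genes, stretches around CCCGGG were taken from RefSeq promoters of the GRCm38.p6 build, 250 bases before to 50 after a gene's start. Of the 10 genes 5 matched a promoter in that table, and 3 of those held CCCGGG, which 13.5% of all 32851 promoters of this length hold. The motif reads the same on both strands, and capitals mark it. The Sfrp2 stretch is chr3:83766323-83766352 on the plus strand, and its motif starts at +15. The Sfrp5 stretch is chr19:42202240-42202269 on the minus strand, with the motif at -5. The Axin2 stretch is chr11:108920099-108920348 on the plus strand and is shown in full upstream length, with the motif at -145. Its 250 bases hold 24 CpGs, and 1 of them is readable by the assay.
Sfrp2: tcactctgctccCCCGGGtcggagcccccc
Sfrp5: caggtccgccaaCCCGGGgcgggggtggga
Axin2: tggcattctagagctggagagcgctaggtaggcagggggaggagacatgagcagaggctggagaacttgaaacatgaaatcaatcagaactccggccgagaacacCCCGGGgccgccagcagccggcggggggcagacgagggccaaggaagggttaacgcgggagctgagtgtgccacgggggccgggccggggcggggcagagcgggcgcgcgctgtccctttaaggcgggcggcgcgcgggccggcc

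The Dkk1 and Wif1 promoters held 9 and 25 CpGs and no CCCGGG in these 300 bases. The measured sites are in mm9 coordinates and these sequences are in another build. Which measured site is which motif was therefore not assigned, nor whether a site is in a promoter, exon or intron.

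Methylation levels below are the percent of reads with the methylated signature, adjusted by the authors with spiked standards, as mean ± SD over adenomas unless called raw. An adenoma holds tumour and other cells, so a level of 10% can be methylation in few cells or partial methylation in many, which cannot be told apart. The kept sites covered the whole range. By control mean, 11 of the 23 sites were below 1% (47.8%, against 49.05% of all kept sites), 3 were at 1 to 5% and 5 at 5 to 20%. At 5 to 20% the 5 sites were 21.7% of the members, and 7.06% of all kept sites were in that class. At 20 to 80% there were 2 sites and above 80% also 2, or 8.70% of the members each, where 19.5% and 17.9% of all kept sites were.

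**Figure D1:**
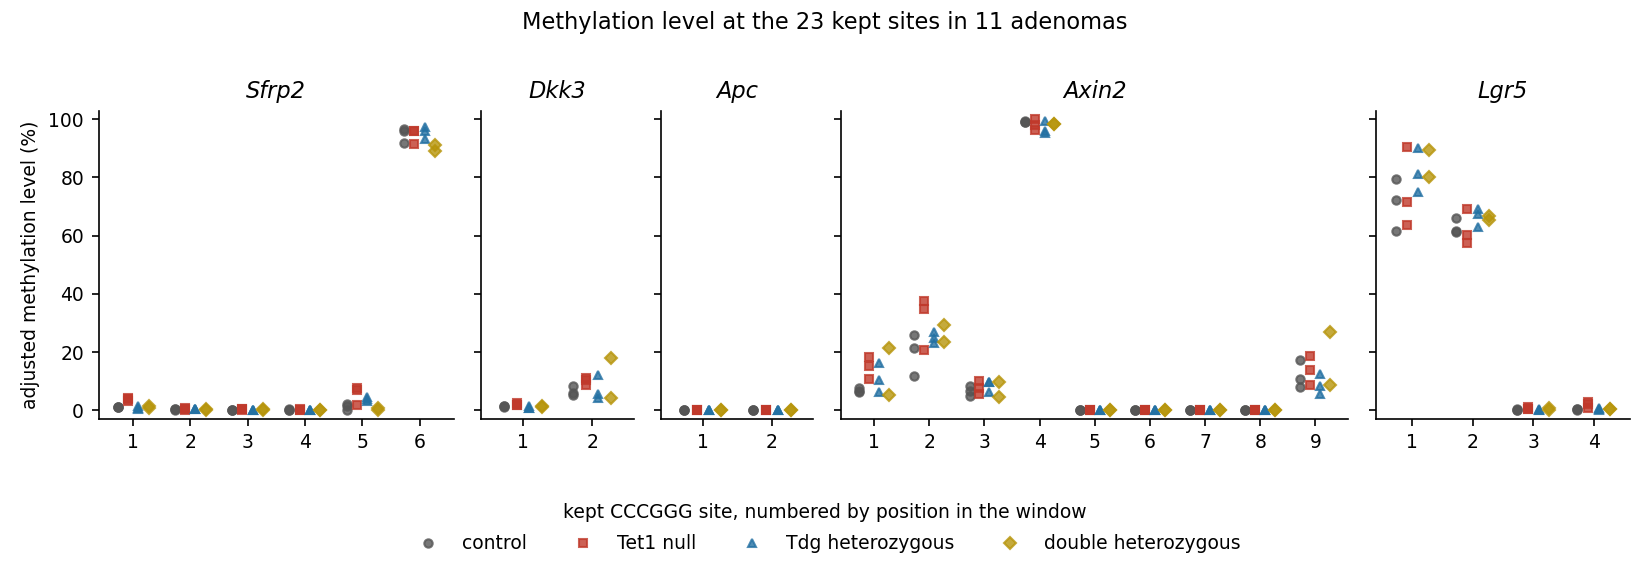
Adjusted methylation level in percent (vertical axis) at each kept CCCGGG site, numbered by position in its gene's window (horizontal axis), with 1 panel per gene and 1 point per adenoma coloured by genotype. Sfrp2 and Axin2 each hold sites near 0 and 1 site near 95% or above, and both Apc sites are at 0 in all 11 adenomas.

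The Sfrp2 window (chromosome 3, 83560000 to 83590000) held a low-level site that was higher in every Tet1 null adenoma than in all others, though the test against control did not pass its threshold. Sfrp2 encodes a secreted frizzled-related protein that binds Wnt ligands. At position 83567976 the level was 1.17, 1.01 and 1.03% in the control adenomas and 4.0, 4.18 and 3.19% in the Tet1 null adenomas. It was 0.75, 0.46 and 1.33% in the Tdg heterozygous adenomas and 1.41 and 0.64% in the double heterozygous adenomas. All 3 Tet1 null adenomas thus lay above all 8 others. The site had 547 to 1288 reads per adenoma. Raw exact (Clopper-Pearson) 95% intervals, which cover counting error only, were 2.96 to 5.41%, 3.10 to 5.35% and 2.10 to 5.37% in the Tet1 null adenomas. In the controls the upper bounds were 2.04, 1.85 and 1.94%. The left-out double heterozygous adenoma had 3 methylated of 129 reads there, or 2.53% adjusted.

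Across the 21016 sites tested, edgeR's quasi-likelihood test gave Sfrp2 83567976 a log2 odds ratio of 1.87 for Tet1 null against control (3.79% ± 0.527 against 1.07% ± 0.0872, n = 3 each). The unadjusted p was 0.00575 and the Benjamini-Hochberg adjusted p 0.201, so the difference did not pass the threshold of 0.05. Over 19 alternative settings the adjusted p ran from 0.0136 to 0.567, and 1 setting, limma on the logit of the level, passed. Against the Tdg heterozygous adenomas (0.847% ± 0.443, n = 3) the log2 odds ratio was 2.28 with an edgeR adjusted p of 0.0576, and 6 of 19 settings passed, over a range of 0.0141 to 0.452. Leaving out either double heterozygous adenoma, 1 or 2, gave 0.0297 for this comparison. Against the double heterozygous adenomas (1.03% ± 0.544, n = 2) the log2 odds ratio was 1.95 and the edgeR adjusted p 0.594.

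The neighbouring Sfrp2 site, 83568289, lies 313 bases away and was read at nearly the same depth (542 to 1263 reads). The control mean was 0.277% ± 0.127 and the Tet1 null mean 0.50% ± 0.315 (n = 3 each), with 0.333% ± 0.0737 in Tdg heterozygotes (n = 3) and 0.27% ± 0.255 in double heterozygotes (n = 2). The Tet1 null values there were 0.18, 0.81 and 0.51%, and those of the controls 0.36, 0.34 and 0.13%, so the groups overlapped. With reads summed over both sites, the raw level was 2.21% ± 0.233 in Tet1 null and 0.687% ± 0.115 in control adenomas (n = 3 each, edgeR adjusted p = 0.101 over 11996 runs of sites, of which 1.52% were called). Against the Tdg heterozygous adenomas (0.605% ± 0.246, n = 3) the summed level was higher in Tet1 null, with a log2 odds ratio of 1.93 and an edgeR adjusted p of 0.0375. That comparison of runs was added after the data were seen, and 1.75% of all runs were called in it. Of 19 alternatives 14 passed, over a range of 0.00651 to 0.232. The call was lost without Tet1 null 2 (0.155), Tet1 null 3 (0.105), Tdg heterozygous 1 (0.204) or Tdg heterozygous 2 (0.232). Against the double heterozygous adenomas (0.685% ± 0.462, n = 2) the edgeR adjusted p of the summed level was 0.364, where 0.433% of all runs were called.

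At none of the other 4 Sfrp2 sites did all Tet1 null adenomas lie above all 8 others. Sites 83570260 and 83570446 had means of at most 0.227% in every genotype. Site 83588225 had 24 to 116 reads and was at 2.07, 1.41 and 0% in control adenomas. It was at 3.24, 4.46 and 3.71% in Tdg heterozygous adenomas, all above the controls (edgeR unadjusted p = 0.218, adjusted p = 1.0). Tet1 null adenomas spread from 1.70 to 7.68% at this site, and the double heterozygous adenomas were at 0.87 and 0%, below all of them. The Tet1 null mean was 5.41% ± 3.24 and the control mean 1.16% ± 1.06 (n = 3 each, edgeR adjusted p = 0.761), with overlap. Only 580 bases further on, site 83588805 was at 94.9% ± 2.52 in controls (n = 3), 94.6% ± 2.52 in Tet1 null (n = 3), 95.5% ± 2.09 in Tdg heterozygotes (n = 3) and 90.1% ± 1.598 in double heterozygous adenomas (n = 2). The double heterozygous values, 89.0 and 91.3%, were both below the lowest control value of 92.0% (edgeR adjusted p = 0.904), and the left-out double heterozygous adenoma was at 93.8% (28 of 30 reads), within the control range.

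**Figure D2:**
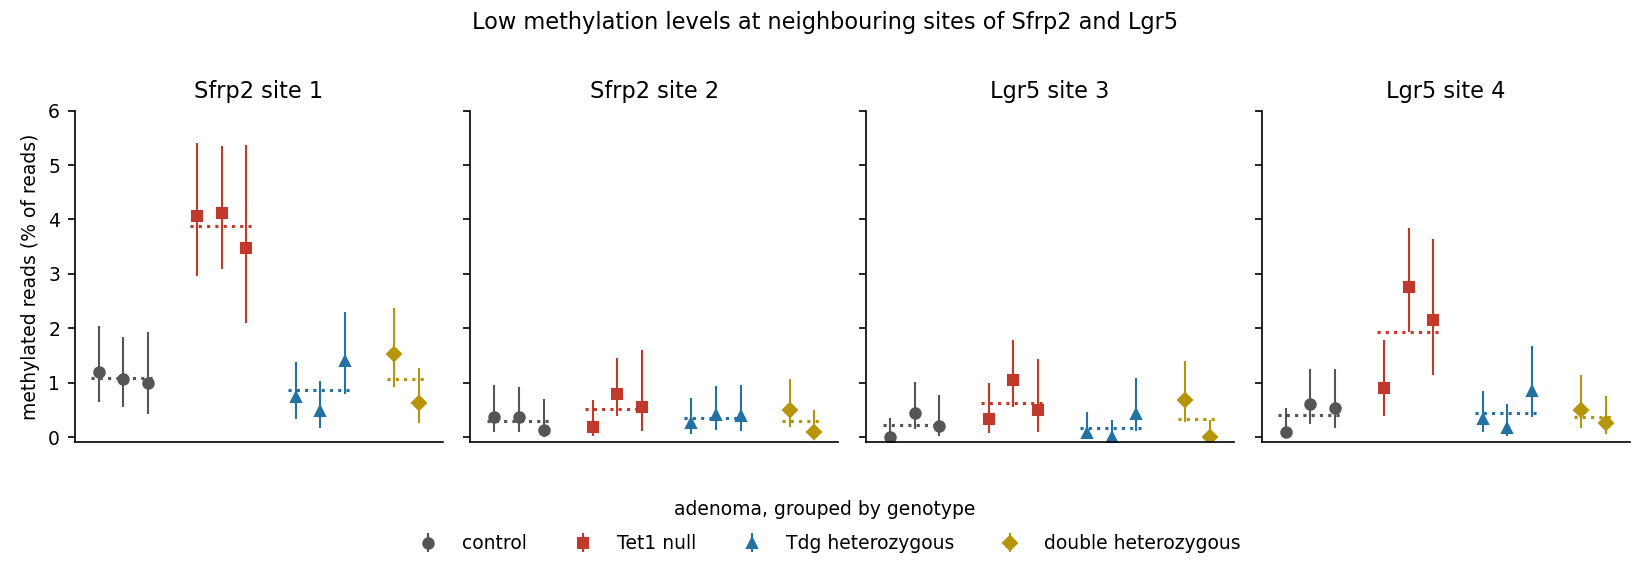
Raw percent of methylated reads (vertical axis) at 2 neighbouring low-level sites of Sfrp2 (site 1 is 83567976, site 2 is 83568289) and 2 of Lgr5 (site 3 is 115025034, site 4 is 115025278), with 1 point per adenoma grouped by genotype (horizontal axis), exact 95% intervals as vertical lines and the genotype mean as a dotted line. At Sfrp2 site 1 and at Lgr5 site 4 the 3 Tet1 null points lie above the 8 others, and at the site beside each the genotypes overlap.

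Dkk3 (chromosome 7, 119250000 to 119320000) kept 2 sites 394 bases apart, with 476 to 1309 reads each. At position 119313771 the controls were at 1.09, 1.48 and 1.49% with the Tet1 null adenomas at 1.80, 2.59 and 1.73%. The Tdg heterozygous adenomas were at 1.42, 0.83 and 0.71% and the double heterozygous at 1.34 and 1.06%. The Tet1 null adenomas again lay above all 8 others, by a gap of 0.24 points, and the edgeR adjusted p against control was 0.786. At position 119314165 the controls were at 5.32, 8.40 and 6.01% with the Tet1 null adenomas at 8.56, 11.1 and 10.3%, without overlap (edgeR adjusted p = 0.761). Tdg heterozygous adenomas were at 5.53, 4.12 and 12.1% and double heterozygous adenomas at 17.9 and 4.07%, so these genotypes spanned the range of both other groups. In every adenoma the second Dkk3 site was more methylated than the first, by 3.01 to 16.6 points. Elsewhere in the window, the unkept Dkk3 site 119265763 (16 to 81 reads) was high. It was at 90.4 to 96.4% in controls and 87.1 to 94.2% in Tet1 null adenomas. The Tdg heterozygotes were at 93.2 to 96.0% and the double heterozygous adenomas at 96.3 to 98.7%.

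The remaining antagonists were too shallow for the site minimum and are given as raw values of reads summed over the window, with no test. Sfrp1 (chromosome 8) had 8 listed sites and 26 to 255 summed reads per adenoma. Its summed level was 13.4, 27.9 and 34.2% in control adenomas, 16.1, 25.6 and 34.6% in Tet1 null, 14.9, 22.4 and 22.5% in Tdg heterozygotes and 22.9 and 13.9% in double heterozygous adenomas. The genotypes overlapped, and a window sum depends on which sites were read. The deepest Sfrp1 sites, 24521487 and 24522127, were low: 1 of 125 and 3 of 116 reads were methylated over the controls, and 3 of 160 and 5 of 151 over the Tet1 null adenomas.

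Sfrp5 (chromosome 19, 4 listed sites, 15 to 62 summed reads) was at 69.7 to 91.7% in every adenoma. Its deepest site, 42260683, had 89 of 92 reads methylated in controls, 96 of 97 in Tet1 null, 117 of 119 in Tdg heterozygotes and 71 of 71 in double heterozygous adenomas. In control 1 that site gave 40 of the 51 summed reads. At the shallower site 42270860 2 of 5, 0 of 2 and 0 of 3 reads were methylated in the controls, so the sum is not the level of every Sfrp5 site. Dkk1 (chromosome 19, 2 listed sites) had 5 to 29 summed reads per adenoma. Over each genotype 19 of 30 Dkk1 reads were methylated in control, 29 of 42 in Tet1 null, 16 of 46 in Tdg heterozygotes and 43 of 55 in double heterozygous adenomas. The Tdg heterozygous adenomas were at 53.3, 18.8 and 33.3% and the controls at 83.3, 53.3 and 66.7%, with exact 95% intervals that overlapped. This sum too depends on which site was read. At Dkk1 30623287 0 of 1, 0 of 2 and 0 of 2 reads were methylated in controls and 2 of 5, 0 of 5 and 0 of 6 in Tdg heterozygotes. At Dkk1 30629529 it was 5 of 5, 8 of 13 and 6 of 7 in controls and 6 of 10, 3 of 11 and 5 of 9 in Tdg heterozygotes. Wif1 (chromosome 10, 3 listed sites) had 1 to 21 summed reads, too few to set a level. No site was listed in the Sfrp4 window.

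Both kept Apc sites (chromosome 18) had no methylated read in any of the 11 adenomas. At 34380703 this was 0 of 1938 reads and at 34380870, 167 bases away, 0 of 1940. A count of 0 allows a level of up to 0.155% at either site over all 11 adenomas, and up to 2.73% in a single adenoma at the lowest depth of 110 reads. Reads of 1 state alone give no odds ratio, so these sites were not tested. The level elsewhere in the window depended on the site. The deepest unkept Apc site, 34428485 (14 to 36 reads), was at 87.4 to 90.2% in controls, 71.1 to 100% in Tet1 null, 89.0 to 95.1% in Tdg heterozygotes and 93.5 to 96.3% in double heterozygous adenomas. The unkept sites 34380666, 34380888 and 34380966 had at most 7 reads per adenoma, and no read of theirs was methylated.

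Axin2 (chromosome 11, 108770000 to 108825000) held 9 kept sites with levels from near 0 to near complete methylation. Between 108781521 and 108782392, 4 sites were almost free of methylation: 1 of 4675, 2 of 18609, 6 of 26591 and 2 of 12605 reads were methylated over the 11 adenomas. Together with both Apc sites these 6 had 0 to 2 methylated of 3142 to 7188 reads in each adenoma. In the Tet1 null adenomas that was 0, 2 and 0 methylated reads, so the raw level was at most 0.0278% there. Only 1217 bases before the first of them, Axin2 108780304 was at 99.2% ± 0.115 in control (n = 3), 98.2% ± 1.88 in Tet1 null (n = 3), 97.0% ± 2.14 in Tdg heterozygotes (n = 3) and 98.5% ± 0.0354 in double heterozygous adenomas (n = 2). For Tdg heterozygous against control this site had an edgeR adjusted p of 1.0.

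The intermediate Axin2 sites lie at 108778828, 108779303 and 108779507. At 108778828 the controls were at 6.30, 6.61 and 7.63% with the Tet1 null adenomas at 10.8, 15.2 and 18.3%, without overlap. The Tdg heterozygous adenomas were at 10.3, 6.34 and 16.3% and the double heterozygous at 21.2 and 5.27%. For Tet1 null against control this site had an edgeR log2 odds ratio of 1.21 and an adjusted p of 0.670. At 108779303 the controls were at 11.6, 21.2 and 25.9%, the Tet1 null adenomas at 20.7, 37.5 and 34.8%, the Tdg heterozygous at 22.9, 24.8 and 26.9% and the double heterozygous at 29.4 and 23.3%. This was the member with the largest mean difference between Tet1 null and control, 11.4 points, and yet the groups overlapped (edgeR adjusted p = 0.761). At 108779507 the means were 6.45% ± 1.75, 7.83% ± 2.24 and 8.61% ± 2.05 in control, Tet1 null and Tdg heterozygous adenomas (n = 3 each) and 7.12% ± 3.78 in double heterozygotes (n = 2). With reads summed over the 3 sites, the raw level was 21.1% ± 5.51 in Tet1 null and 13.1% ± 3.63 in control adenomas (n = 3 each, edgeR adjusted p = 0.629).

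The last kept Axin2 site, 108797070, sat at the depth limit with 20 to 182 reads, and was at 8.06 to 17.3% in control and 8.66 to 18.6% in Tet1 null adenomas. Just outside the limit, Axin2 108796461 had 19 reads in its shallowest adenoma. It was at 4.69, 12.6 and 4.64% in control, 8.45, 27.5 and 9.71% in Tet1 null, 5.78, 2.92 and 10% in Tdg heterozygotes and 22.6 and 9.40% in double heterozygous adenomas, so the genotypes overlapped. The Tet1 null mean of 15.2% ± 10.6 (n = 3) was 9.08% without Tet1 null 2.

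**Figure D3:**
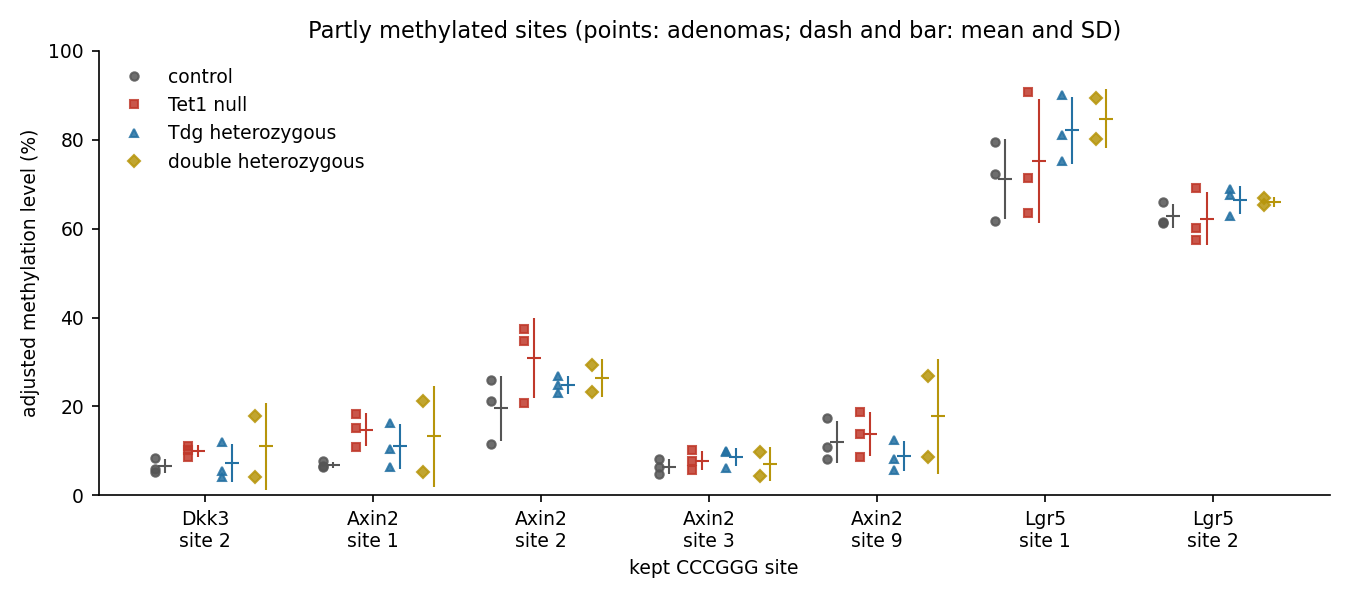
Adjusted methylation level in percent (vertical axis) at the 7 partly methylated members of Dkk3, Axin2 and Lgr5 (horizontal axis, numbered by position), with 1 point per adenoma coloured by genotype and the genotype mean and SD as a dash and bar. At Axin2 site 1 (108778828) the Tet1 null adenomas are at 10.8 to 18.3% and the controls at 6.30 to 7.63%, while the double heterozygous adenomas are at 21.2 and 5.27%.

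Lgr5 (chromosome 10, 114880000 to 115035000) had 4 kept sites in 2 pairs. Tet1 and Tdg also lie on chromosome 10. The pair at 115025034 and 115025278, 244 bases apart, was low and deeply read (605 to 1243 reads). At 115025278 the controls were at 0.09, 0.58 and 0.56% with the Tet1 null adenomas at 0.89, 2.81 and 1.97%. The Tdg heterozygous adenomas were at 0.34, 0.16 and 0.81% and the double heterozygous at 0.45 and 0.26%. All 3 Tet1 null adenomas lay above all 8 others, the lowest of them by 0.08 points. That gap is between 8 methylated of 884 reads in Tet1 null 1 and 8 of 940 in Tdg heterozygous 3. In the left-out double heterozygous adenoma, 0 of 88 reads were methylated, which allows up to 3.41%.

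For Lgr5 115025278 the edgeR log2 odds ratio of Tet1 null against control was 2.20 (1.89% ± 0.962 against 0.41% ± 0.277, n = 3 each), with an unadjusted p of 0.00417 and an adjusted p of 0.167. None of 19 alternative settings passed 0.05, over a range of 0.0822 to 0.819. Against Tdg heterozygous (0.437% ± 0.336, n = 3) the edgeR adjusted p was 0.177, and against double heterozygous adenomas (0.355% ± 0.134, n = 2) it was 0.521. The companion site 115025034 had means of 0.21% ± 0.205, 0.613% ± 0.391 and 0.163% ± 0.217 in control, Tet1 null and Tdg heterozygous adenomas (n = 3 each) and 0.315% ± 0.445 in double heterozygotes (n = 2). With reads summed over both, Tet1 null adenomas were at 1.28% ± 0.641 raw and controls at 0.316% ± 0.244 (n = 3 each, edgeR adjusted p = 0.109). Over 19 alternatives the adjusted p of this summed comparison ran from 0.0152 to 0.769, and 2 passed. Those were the fit of both compared genotypes alone (0.0397) and, of the 11 fits without 1 adenoma (0.0152 to 0.609), the one without Tet1 null 1, the lowest of its genotype here. In the comparison of runs added after the data were seen, Tdg heterozygous adenomas were at 0.310% ± 0.292 raw (n = 3). The edgeR adjusted p of Tet1 null against them was 0.0753, and 6 of 19 alternatives passed, over a range of 0.00590 to 0.939. Against double heterozygous adenomas (0.357% ± 0.323, n = 2) it was 0.565.

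The other Lgr5 pair was at intermediate level. At 114948905 (183 to 626 reads) the controls were at 61.7, 79.5 and 72.3% with the Tet1 null adenomas at 63.6, 90.6 and 71.4%. The Tdg heterozygous adenomas were at 81.1, 75.2 and 90.0%, and the double heterozygous at 89.4 and 80.1%, both above every control. For double heterozygous against control the edgeR log2 odds ratio at this site was 1.22, with an unadjusted p of 0.0797 and an adjusted p of 0.904. At 114949334, 429 bases away, the means were 62.9% ± 2.66 in control (n = 3), 62.3% ± 6.04 in Tet1 null (n = 3), 66.5% ± 3.21 in Tdg heterozygotes (n = 3) and 66.0% ± 1.14 in double heterozygous adenomas (n = 2). In single adenomas the second of these Lgr5 sites differed from the first by -22.5 to 4.27 points.

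Averaged over a gene's kept sites, control levels were 33.7% ± 1.75 for Lgr5, 16.2% ± 0.622 for Sfrp2, 16.0% ± 1.39 for Axin2, 3.97% ± 0.887 for Dkk3 and 0 for Apc (n = 3 each). Sfrp2 and Axin2 differed by less than their spread. The order depends on which sites were kept. Control means of single sites ran from 0 to 94.9% in Sfrp2, from 0 to 99.2% in Axin2 and from 0.21 to 71.1% in Lgr5. Both kept Dkk3 sites were under 10% and both kept Apc sites at 0, while unkept sites of these windows could be high. Tet1 null means were 35.0% ± 5.16 for Lgr5, 17.4% ± 0.963 for Sfrp2, 18.4% ± 2.27 for Axin2 and 6.01% ± 0.833 for Dkk3 (n = 3 each). Tdg heterozygous means were 37.3% ± 2.41, 16.7% ± 0.339, 16.7% ± 0.805 and 4.12% ± 2.04 in the same order (n = 3 each). Double heterozygous means were 37.9% ± 2.08, 15.3% ± 0.0636, 18.1% ± 2.75 and 6.09% ± 4.99 (n = 2 each).

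For Tet1 null against control, none of the 21 members tested passed an edgeR adjusted p of 0.05, where 1.35% of the 21016 sites did (280 higher and 3 lower in Tet1 null). Limma on count ratios called none and limma on the logit of the level called 1, Sfrp2 83567976. At an unadjusted p under 0.05 there were 2 members, Sfrp2 83567976 and Lgr5 115025278, against 8.05% of all sites. All Tet1 null adenomas lay above all controls at 5 members, against 10.3% of all sites, and below them at none, against 1.24%. The 5 were Sfrp2 83567976, both Dkk3 sites, Axin2 108778828 and Lgr5 115025278. At 3 members all Tet1 null adenomas lay above all 8 others, against 2.89% of all sites. The mean was higher in Tet1 null at 14 members, lower at 6 and equal at 1, and it was higher at 65.1% of all sites tested. The median difference was 0.40 points over the members and 0.163 points over all sites.

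**Figure D4:**
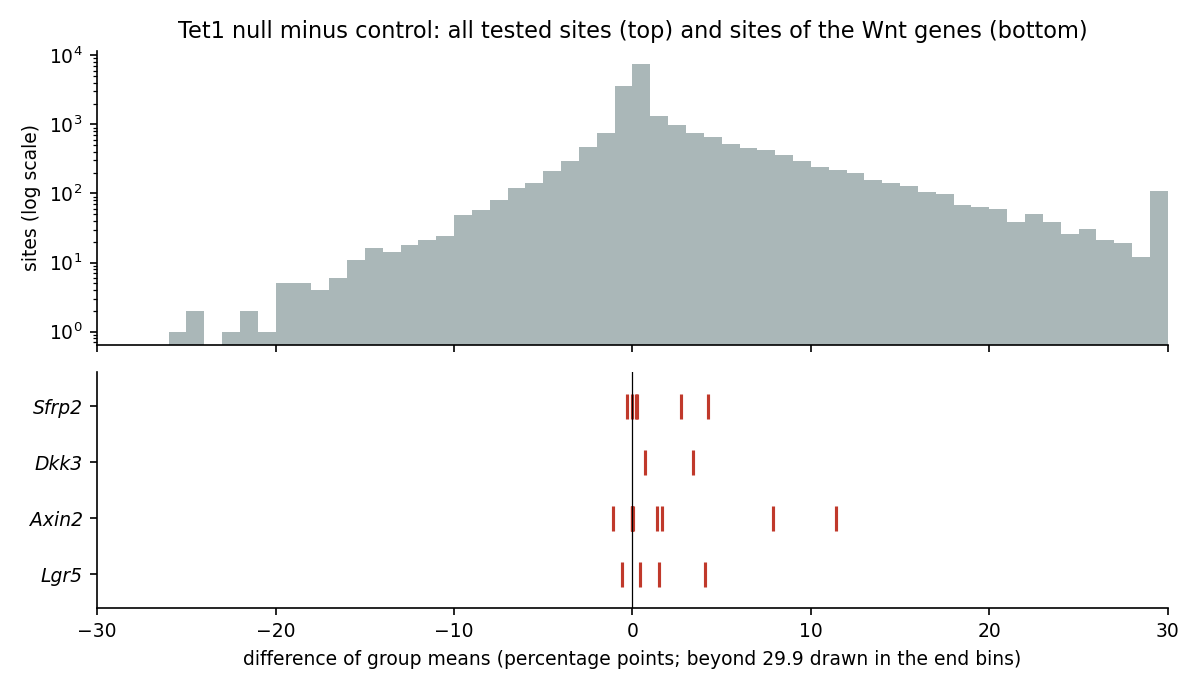
Difference in mean adjusted level between Tet1 null and control adenomas, in percentage points (horizontal axis), as a histogram of all 21016 tested sites on a log scale (top) and as 1 tick per tested member, by gene (bottom). The members range from -1.08 to 11.4 points, and the widest differences among them are in Axin2.

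For Tdg heterozygous against control, edgeR called none of the 21 members and 0.0% of all sites. None had an unadjusted p under 0.05, against 3.01% of all sites, and limma called none. All mutant adenomas lay above all controls at 1 member, Sfrp2 83588225 (5.9% of all sites), and below at none (1.86%). The median difference was 0.0267 points over the members and also over all sites.

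For double heterozygous against control, edgeR again called none of the 21 members and 0.0% of all sites, none of the members had an unadjusted p under 0.05 (3.72% of all sites, and 7.85% without double heterozygous 2), and limma called none. Both mutant adenomas lay above all controls at 1 member, Lgr5 114948905 (12.5% of all sites). They lay below all controls at 2, Sfrp2 83588805 and Axin2 108780304 (2.7% of all sites). At the Axin2 site few reads separate the groups. The controls had 115 of 116, 158 of 159 and 124 of 125 reads methylated, and both double heterozygous adenomas 143 of 145 and 125 of 127. The left-out double heterozygous adenoma was at 86.9% at the Lgr5 site, also above all controls, but not below them at the other sites, with 93.8% at Sfrp2 83588805 and 18 of 18 reads methylated at Axin2 108780304. The median difference was 0 points over the members and 0.085 points over all sites. The comparisons with control share the 3 control adenomas.

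Between the mutant genotypes, edgeR called no member site either. The called share of all sites was 1.48% for Tet1 null against Tdg heterozygous, 0.471% for Tet1 null against double heterozygous and 0.0% for double against Tdg heterozygous adenomas. Members with an unadjusted p under 0.05 numbered 3, 2 and 0, against 7.19%, 4.23% and 2.71% of all sites. Without single adenomas these shares were 5.37 to 8.38%, 3.22 to 6.58% (the highest without double heterozygous 1) and 1.98 to 5.90% (the highest without double heterozygous 2). Limma on count ratios called 1, 0 and 0 members and limma on the logit called 1, 1 and 0, which was Sfrp2 83567976 in each case. Tet1 null adenomas lay above all Tdg heterozygous adenomas at 3 members (7.68% of all sites). They lay above both double heterozygous adenomas at 5 (8.12% of all sites). They lay below the Tdg or the double heterozygous adenomas at none (1.92% and 4.9% of all sites). The double heterozygous adenomas lay below all Tdg heterozygous adenomas at 2 members, Sfrp2 83588225 and 83588805 (3.94% of all sites), and above them at none (7.69%).

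**Figure D5:**
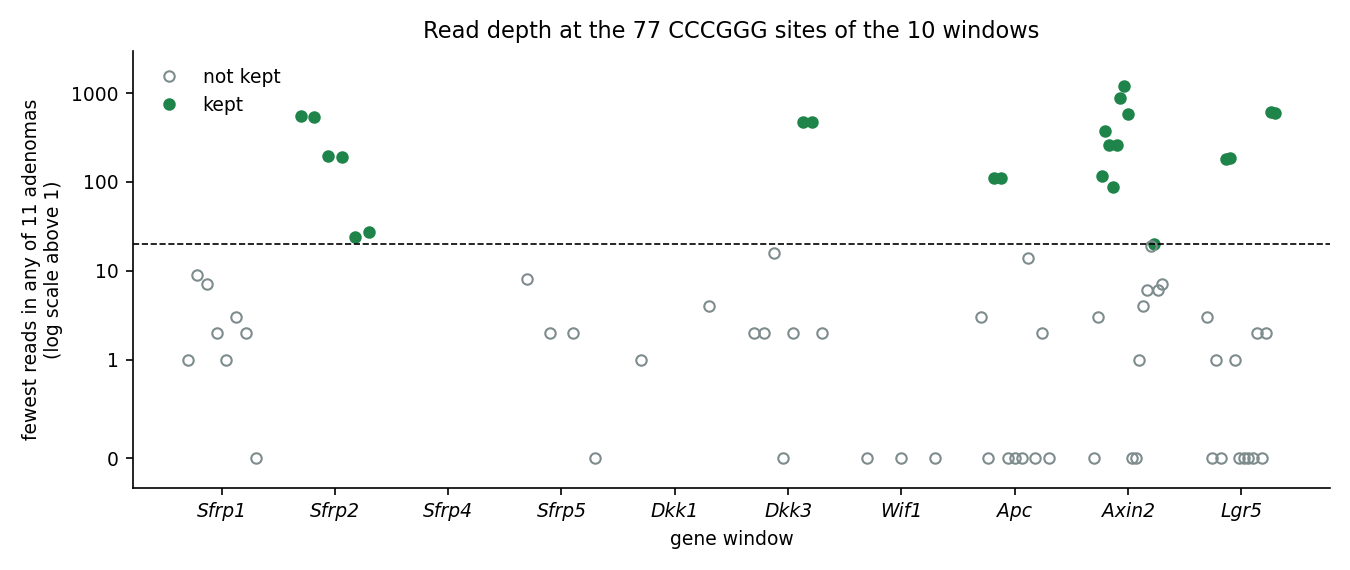
Fewest reads in any of the 11 adenomas (vertical axis, log scale above 1) at each of the 77 listed sites, by gene window (horizontal axis), with kept sites filled and the minimum of 20 reads as a dashed line. The 23 kept sites lie on or above the line, and no site of Sfrp1, Sfrp5, Dkk1 or Wif1 reaches it.

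Values of the adenomas as a whole were set beside these levels. Over all 24503 kept sites the mean level averaged 28.1% ± 0.273 over the controls (n = 3), 29.99% ± 1.602 in Tet1 null (n = 3), 28.8% ± 0.519 in Tdg heterozygotes (n = 3) and 29.7% ± 1.46 in double heterozygous adenomas (n = 2). Exact two-sided permutation tests against control gave p = 0.2, 0.1 and 0.1, or 0.4, 0.3 and 0.3 adjusted over 6 comparisons, and 3 against 3 cannot go below 0.1. The 4 highest means, 29.4 to 31.5%, belonged to Tet1 null 2 and 3, double heterozygous 1 and Tdg heterozygous 3, and the other 7 were at 27.8 to 28.7%. The same 4 adenomas were the highest 4 at 3 of the 7 members with a mean of 5 to 80%, which were Dkk3 119314165, Axin2 108778828 and Axin2 108779303. That held at 16.3% of all 6507 kept sites of this class. Both Axin2 sites lie 475 bases apart in the same run, so they are not independent. At 6 of the 7 members at least 3 of the same 4 adenomas were among the highest 4, as at 47.6% of the class. The part of this adenoma-wide level in the differences at those sites was not tested.

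The low-level sites were read beside the spiked standards that are unmethylated. Their raw level was 1.20, 1.00 and 0.422% in control, 1.29, 0.827 and 0.147% in Tet1 null, 0.559, 0.120 and 0.133% in Tdg heterozygotes and 1.66 and 0.833% in double heterozygous adenomas. The genotypes overlapped. At Sfrp2 83567976 the 3 Tet1 null adenomas were above their own standards, with lower 95% bounds of 2.96, 3.10 and 2.10% raw. The controls were there at 1.20, 1.06 and 0.99% raw and the Tdg heterozygotes at 0.73, 0.47 and 1.40%. The double heterozygous adenomas were at 1.52 and 0.62% raw, both below their own standards. At Lgr5 115025278 Tet1 null 1 was at 0.90% raw, below its own standard of 1.29%, and Tet1 null 2 and 3 were at 2.76 and 2.15%, above theirs. Sites of the genome could lie far below the standards. The 6 near-unmethylated Axin2 and Apc sites had 0 of 6043 methylated reads in Tet1 null 1 and 1 of 6238 in control 1. Whether a level near or under a standard is background was not tested.

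Neighbouring sites could be read at equal depth and still differ in level. Of 11 pairs of kept members within 500 bases, 6 had read counts within 5% of each other in every adenoma, as had 39.7% of 11536 such pairs over all kept sites. Among the latter equal-depth pairs, 39.2% differed in mean level by more than 5 points. The Dkk3 pair, with depths never more than 0.916% apart, differed by a median of 6.76 points. The Sfrp2 pair at 83567976 differed in every adenoma in the other direction, the second site minus the first being -3.82 to -0.07 points.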

How the data were processed

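Methylation was read by sequential SmaI and XmaI digestion and sequencing in 12 adenomas, per the labels. The submitters' processing notes name Trim Galore, Bowtie2 and the build mm9, while the protocol text names a rat build. Tool versions were not given in the sources used here. Per the file headers, the deposited values are counts of reads with either signature at each site. The deposited percent levels are raw and adjusted by the authors with spiked standards, per the labels. The labels state a minimum of 100 reads, and the deposited tables list sites below it.

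Members and lists were chosen with earlier results of these data known. Autosomal sites with at least 20 reads in 11 adenomas were kept. Those with reads of 1 state were left out, which left 21016 for edgeR 4.0.16 (R 4.3.3). Its two-sided quasi-likelihood test used methylated and unmethylated counts, a depth coefficient per adenoma, all 4 genotypes in 1 fit without covariate, and a common dispersion of 0.112. The p-values were adjusted over all sites (Benjamini-Hochberg). Runs are kept sites at most 500 bases apart with summed reads. Alternatives were other depth minimums (10, 50 and 100 reads), limma 3.58.1 fitted to log2 ratios with 2 reads added or to the logit of levels limited to 1 to 99%, all 12 adenomas, the compared genotypes alone, a replicate block and leaving out each adenoma. Single values were compared by exact permutation tests.

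Named sites were, per gene and comparison with control, the site with the smallest p, plus the sites of highest and lowest level in each gene. Further sites were named after their values were seen. The scripts were tested on simulated data. The median depth at kept sites was 234 to 564 reads in the 11 adenomas and 68 in the one left out. No molecular identifiers are named, so intervals cover counting error only. Other genes of the pathway were not analysed here, since the gene table is of another build. Figures were drawn with matplotlib 3.10.9.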

Additional observations from a re-analysis of the deposited data

How the results depend on the processing

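The number of members called was 0 in the 6 comparisons of sites and in the 3 of runs with control. It was also 0 in 162 of 174 alternatives to these. In the other 12 it was 1. For Tet1 null against control this was 1 site with limma on the logit (Sfrp2, adjusted p = 0.0136), and, over runs, 1 with limma on the logit (Sfrp2, 0.00733) and 1 with the compared genotypes alone (Lgr5, 0.0397). For Tet1 null against Tdg heterozygous it was 1, always Sfrp2, with all 12 adenomas (0.0352), the compared genotypes alone (0.0394), limma on count ratios (0.0241), limma on the logit (0.0141) and runs (0.0375). For Tet1 null against double heterozygous it was 1 with limma on the logit (0.0453). Runs between mutant genotypes entered these alternatives once per comparison, and their own settings were not counted. Of those settings, 14 of 19 passed for the summed Sfrp2 pair against Tdg heterozygous and 6 of 19 for the summed low-level Lgr5 pair. Leaving out single adenomas gave 0 to 1 member sites for Tet1 null against Tdg heterozygous and 0 to 1 member runs for Tet1 null against control. On the logit scale, levels under 1% were set to 1% by construction. Over all sites, Tet1 null against control gave 283 calls, 73 with limma on the logit and 120 to 378 with single adenomas left out. Tet1 null against Tdg heterozygous gave 312, 73 with limma on the logit and 180 to 376 with single adenomas left out. Tet1 null against double heterozygous gave 99, 24 to 95 with single adenomas left out, 36 and 24 with limma on count ratios and on the logit, 47 with the compared genotypes alone and 59 with the replicate block. Over runs, Tet1 null against control gave 182 (48 with limma on the logit, 120 to 310 with single adenomas left out), against Tdg heterozygous 210 (151 to 300) and against double heterozygous 52 (12, without double heterozygous 2, to 68). Replicate numbers gave no pairing that held across all genotypes: of 15 same-numbered pairs 4 correlated above 0.1, over -0.269 to 0.228. Pairs of unlike number ran from -0.358 to 0.358. With n = 2, the double heterozygous adenomas deviate from their mean in opposite directions by construction, and their correlations set these extremes. Between control and Tet1 null, same-numbered pairs were at 0.154, 0.0966 and 0.226, above all pairs of unlike number (-0.185 to 0.0371). No other pair of genotypes split in this way, and the origin of this was not tested. For 6 of the 11 adenomas the most correlated adenoma of another genotype had the same number. With the replicate block 0 members were called in each comparison, the summed Sfrp2 pair against Tdg heterozygous had an adjusted p of 0.113, and 202 of all sites were called for Tet1 null against control. Depth limited Sfrp1, Sfrp5, Dkk1 and Wif1, where no site reached 20 reads in all 11 adenomas.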
